A study of Polistes metricus with 16 samples.

Results

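Among the brain transcripts of 16 adult female paper wasps (Polistes metricus), 120 lay apart in foundresses trained to simple patterns while the foundresses and workers trained to faces stayed close to each other. Of these 120, 32 (0.073% of the transcripts that could be compared) were higher and 88 (0.201%) lower in the pattern-trained foundresses. Both shares depend on the rule and on how the libraries were scaled. The 120 were picked from 127674 transcript identifiers by their levels in these same libraries. Levels are given as CPM, the usual scaling of a count to the total of its library. A transcript had to have at least 10 counts in every wasp, which 43848 did. All 4 pattern-trained foundresses then had to lie above the highest, or all below the lowest, of the 12 face-trained wasps. The mean of the face-trained foundresses and that of the 8 workers also had to lie close, the larger at most 25% above the smaller. The rule would have kept at most 150 transcripts, and since only 120 met it, all of them are described. Because the rule read all 16 libraries, the differences between pattern-trained and face-trained wasps below are a description of the choice, with no test.

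There were 4 groups of 4 wasps, each wasp with her own brain library. Foundresses trained to simple patterns carry the collection month May, and foundresses trained to faces June, although the protocol places all foundresses in early spring. Workers that had lived for at least a week on a nest of P. fuscatus (allospecific), and workers that had lived as long on another nest of their own species (conspecific), were all trained to faces, and 7 of the 8 were collected in July and 1, MW21, in June. Every wasp ran 40 trials in a T-maze with negative reinforcement, the faces were those of P. fuscatus, and wasps were killed by freezing 30 minutes after the last trial. No untrained wasps are among these libraries. Training to patterns and collection in May fell on the same 4 wasps, so they cannot be told apart.

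Foundresses are the overwintered queens that start a nest in spring, and workers are the daughters that they raise later in the season. Insects hold visual memories in the mushroom bodies and the optic neuropils of the brain, and lasting memory depends on new transcription in neurons after training. P. fuscatus wasps know each other by variable facial markings, whereas P. metricus wasps are not known to do so. The identifiers come without gene names, so what the 120 transcripts encode, and whether neuronal or glial markers are among them, is not given here. In whole brains, fewer cells of a type and less RNA per cell cannot be told apart.

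Library totals ran from 17782617 to 22832434 counts in pattern-trained foundresses and from 14949149 to 21822598 in the 12 face-trained wasps. A set of 143 transcripts, here called the abundant set, took very unequal shares of these totals. It was picked only for rising and falling with the identifier of most counts over all wasps, the pattern-trained ones included. No level was asked of its transcripts, so the name does not hold for each of them. Their share was 8.98% to 16.8% in pattern-trained foundresses and 2.18% to 19.2% in face-trained wasps. M4 was the lowest of the pattern-trained foundresses, and MW21, a worker from a conspecific nest, lay above all other 15 wasps. These shares bear on every CPM value, because what the abundant set takes is lost to the rest. Over all 43848 transcripts the median log2 ratio, pattern-trained over face-trained, was -0.09, and 30104 of them (68.7%) lay below 0. The count of 88 lower against 32 higher members stands beside that shift.

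The largest difference among the members was in PmetTSAr2.0-084132. It stood at 14.9, 12.9, 8.27 and 15.2 CPM in the pattern-trained foundresses M1, M15, M4 and M5. It stood at 1.33, 5.55, 1.41 and 5.26 CPM in the face-trained foundresses M30, M67, M79 and M91. Every pattern-trained foundress lay above every face-trained one, and the face-trained foundresses themselves fell into a low and a middle pair. The allospecific-nest workers MW30, MW32, MW41 and MW47 had 0.926, 6.70, 0.618 and 3.23 CPM. The conspecific-nest workers MW21, MW25, MW40 and MW42 had 7.51, 0.801, 1.00 and 6.87 CPM. Each face-trained group thus held 2 wasps at or under 1.41 CPM and 2 at or above 3.23 CPM, a 12.2-fold range over the 12, and M4 lay only 1.101-fold above MW21. Means were 12.8 ± 3.21 CPM in pattern-trained foundresses (SD, n = 4) and 3.43 ± 2.74 CPM in the 12 face-trained wasps (SD, n = 12), a log2 ratio of 1.90. This transcript is itself in the abundant set, as the only member, with 10 to 348 counts behind its values.

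PmetTSAr2.0-072854, the next among the higher members, had 9.78, 9.09, 10.9 and 13.4 CPM in M1, M15, M4 and M5. Face-trained foundresses had 3.85, 6.66, 6.02 and 6.30 CPM, in the order above. Allospecific-nest workers had 2.48, 7.93, 2.72 and 7.81 CPM, and conspecific-nest workers 6.44, 3.95, 3.68 and 6.71 CPM. All pattern-trained foundresses lay above 9 CPM and no face-trained wasp reached 8 CPM. The nearest pair, M15 and MW32, was 1.15-fold apart. Means were 10.8 ± 1.91 CPM in pattern-trained foundresses (SD, n = 4) and 5.38 ± 1.93 CPM in face-trained wasps (SD, n = 12), a log2 ratio of 1.01. The workers with low values of the first transcript were low in this one too, and the Pearson correlation of their log2 CPM over the 12 face-trained wasps was 0.86, given as a description of libraries that share their totals.

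Among the lower members PmetTSAr2.0-078720 had the largest difference. It stood at 3.12, 3.99, 3.26 and 3.55 CPM in M1, M15, M4 and M5. Face-trained foundresses had 11.5, 5.32, 9.29 and 5.67 CPM. Allospecific-nest workers had 6.58, 8.58, 10.01 and 6.09 CPM, and conspecific-nest workers 4.88, 8.29, 6.82 and 8.13 CPM. The pattern-trained foundresses were tightly grouped and all below the lowest face-trained wasp, MW21, and the gap between M15 and MW21, 1.22-fold, was the widest of all 120 members. Means were 3.48 ± 0.385 CPM in pattern-trained foundresses (SD, n = 4) and 7.60 ± 2.04 CPM in face-trained wasps (SD, n = 12), a log2 ratio of -1.13. Another member, whose identifier lies 3 further on, had nearly the same profile, with 3.74 ± 0.491 CPM in pattern-trained foundresses and 8.44 ± 3.96 CPM in face-trained ones (SD, n = 4 each). The pair correlated at 0.92 within groups, and both are uncertain as separate transcripts, since whether they are pieces of 1 gene or share reads was not tested.

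PmetTSAr2.0-021243, the second of the lower members, rested on few counts, 12 to 15 in pattern-trained foundresses and 13 to 47 in the others. It had 0.793, 0.596, 0.675 and 0.657 CPM in M1, M15, M4 and M5. Face-trained foundresses had 1.19, 1.203, 1.46 and 1.68 CPM. Allospecific-nest workers had 1.27, 2.76, 1.67 and 1.15 CPM, and conspecific-nest workers 1.82, 0.858, 0.870 and 1.89 CPM. The groups did not overlap, but MW25 and MW40 lay close to M1, nearer than 13 to 15 counts can tell apart. Means were 0.680 ± 0.0823 CPM in pattern-trained foundresses (SD, n = 4) and 1.48 ± 0.529 CPM in face-trained wasps (SD, n = 12), a log2 ratio of -1.13.

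**Figure D1:**
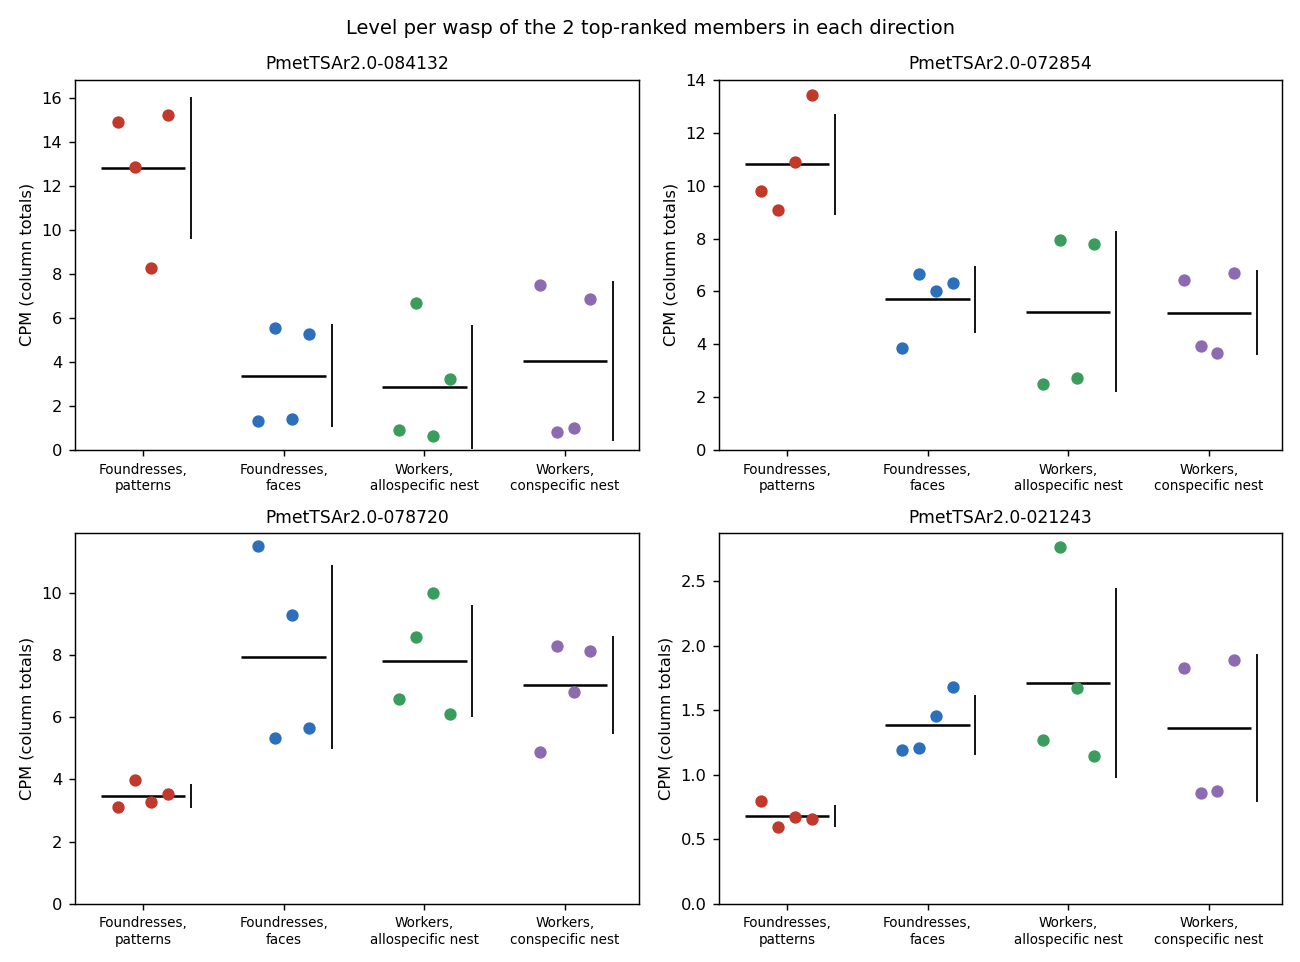
Each panel plots the CPM of 1 transcript (vertical axis, from 0) in each of the 16 wasps, by group; horizontal lines are group means and vertical lines the SD of 4 wasps. The pattern-trained foundresses lie beyond all others in every panel, from 8.27 to 15.2 CPM for PmetTSAr2.0-084132 and from 3.12 to 3.99 CPM for PmetTSAr2.0-078720. The 12 face-trained wasps range over 12.2-fold and 2.36-fold for the same 2 transcripts.

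Most members differed by less than these. The median of the 32 higher members was 1.44-fold (log2 ratio 0.52, from 0.19 to 1.90), and that of the 88 lower members was 0.721 of the face-trained level (log2 ratio -0.47, from -1.13 to -0.18). Only 2 higher and 4 lower members differed by 2-fold or more, and 10 higher and 27 lower by 1.5-fold or more. Over all 43848 transcripts the median size of the log2 ratio was 0.15. Set against each face-trained group by itself, all with the same 4 pattern-trained foundresses in the comparison, the higher members had median log2 ratios of 0.44 over face-trained foundresses, 0.57 over allospecific-nest workers and 0.54 over conspecific-nest workers. The lower members had -0.41, -0.56 and -0.46 in the same order. The direction was the same in all 120 members against each of the 3 groups, as the rule requires.

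The separation was narrow. Between the pattern-trained and the face-trained wasp that lay closest to each other, the median gap was 1.04-fold in higher and 1.03-fold in lower members, and in 80 of the 120 it was under 5%. A gap of 10% or more was found in 6 higher and 13 lower members. An exact binomial 95% interval of the ratio of those 2 wasps' counts covers counting error only. By that interval they differed in 0 of the 32 higher and 3 of the 88 lower members. The 2 wasps were picked for lying closest, so a low number was built in, and the groups are not tested by it. Just outside the rule lay 208 further transcripts in which the groups overlapped by less than 5%. The smallest gap inside was 1.0004-fold and the largest value outside 0.9999. For the limit of 25%, the member nearest to it had a ratio of 1.247 between face-trained foundresses and workers, and the nearest transcript left out had 1.258. That limit removed 18 of the 138 transcripts in which pattern-trained foundresses lay beyond all others. The lowest count was 10 in 3 members, and 3 more transcripts would have met the rest of the rule with a lowest count of 9.

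**Figure D2:**
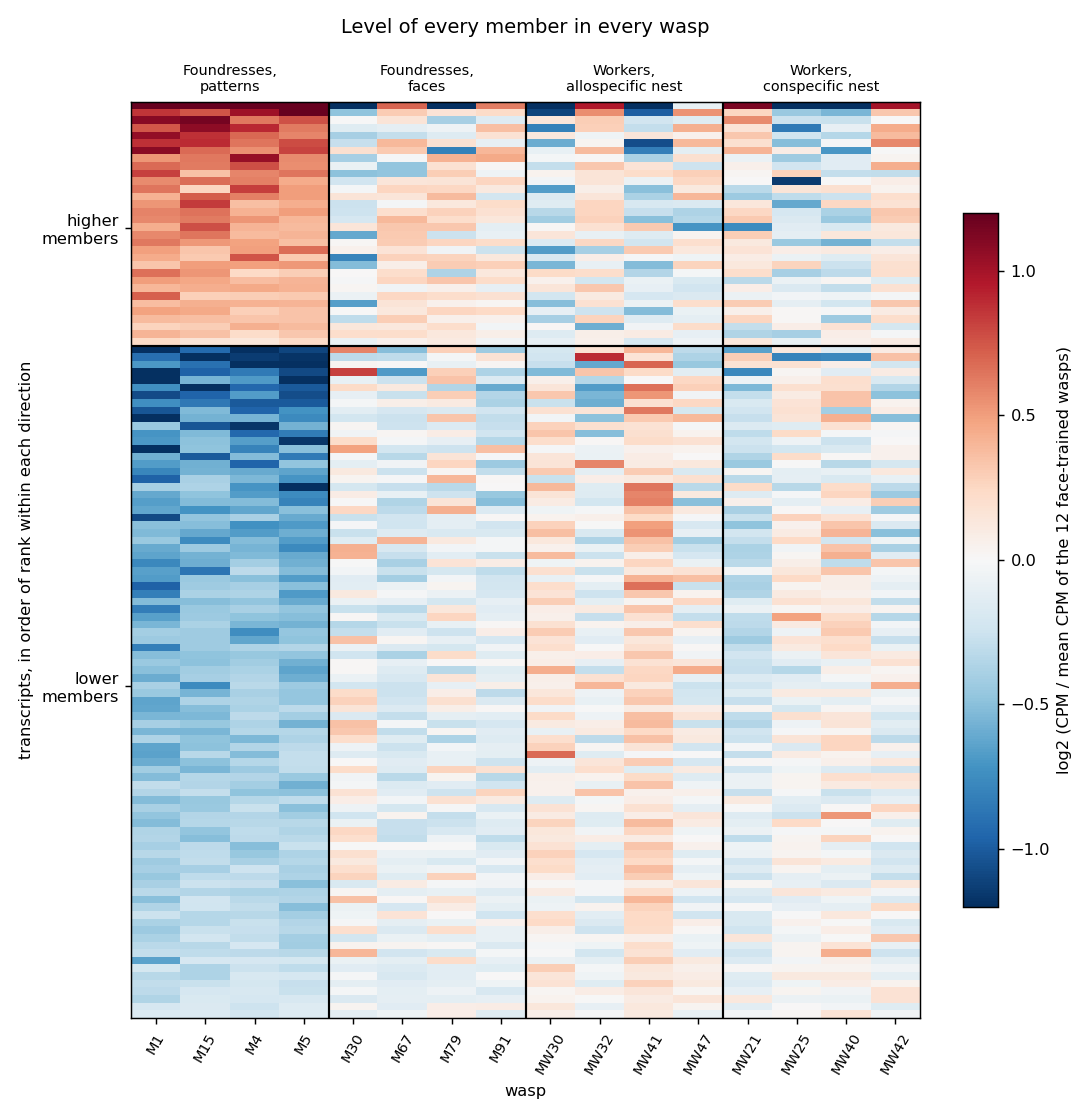
Rows are the 120 members in order of their log2 ratio within each direction, columns the 16 wasps by group, and colour gives log2 of CPM over the mean CPM of the 12 face-trained wasps (red higher, blue lower; colours end at 1.2 to either side). The 4 left columns stand apart in all rows, and among face-trained wasps MW21 and M67 are bluer, and MW41 and MW30 redder, over the 88 lower members.

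Single wasps differed in how near they came to the other side. Among pattern-trained foundresses M4 was the nearest in 46 of the 120 members, M15 in 32, and M1 and M5 in 21 each. Among face-trained wasps MW21 was the nearest in 27 members, M67 in 20, M91 and MW42 in 18 each and MW32 in 11. The remaining 7 wasps were nearest in 1 to 7 members each, and MW30 and MW41 in 1 each. The nearest face-trained wasp was a foundress in 51 members and a worker in 69. Lower members, 88 of the 120, made up 33 of the 46 for M4 and 23 of the 27 for MW21.

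**Figure D3:**
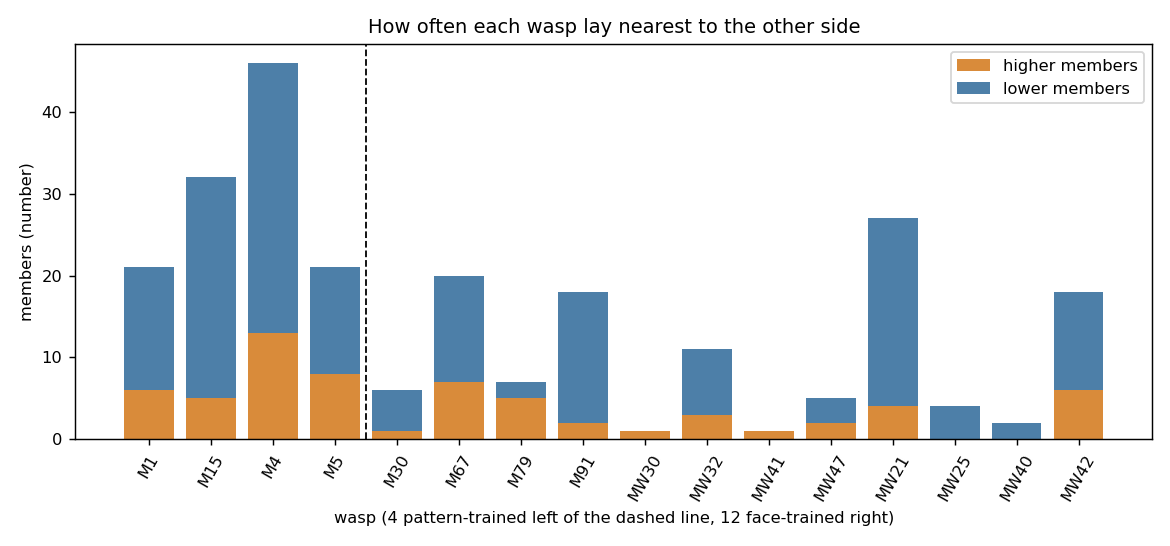
Bars give, for each wasp, the number of members in which she lay nearest to the other side, with higher members in orange and lower members in blue, and the dashed line parts the 4 pattern-trained from the 12 face-trained wasps. M4 has 46 and MW21 27, against 1 each in MW30 and MW41.

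The summed level of the 32 higher members was 374, 369, 348 and 354 CPM in M1, M15, M4 and M5. It was 222, 286, 275 and 274 CPM in face-trained foundresses, 212, 285, 212 and 244 CPM in allospecific-nest workers and 285, 224, 227 and 292 CPM in conspecific-nest workers. The pattern-trained foundresses lay close together, and the face-trained wasps spread more widely, with M30, MW30 and MW41 lowest. The 88 lower members summed to 1656, 1696, 1880 and 1769 CPM in M1, M15, M4 and M5. They summed to 2483, 2138, 2347 and 2161 CPM in face-trained foundresses, 2624, 2307, 2834 and 2444 CPM in allospecific-nest workers and 2272, 2470, 2607 and 2456 CPM in conspecific-nest workers. M4 was the highest and M1 the lowest of the pattern-trained foundresses, and MW41 the highest of all.

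Among the face-trained wasps, which differ in no training stimulus, the members moved with the share of the abundant transcripts. The median log2 level of the higher members, relative to the mean of the 12, was lowest in MW41 at -0.20, where the abundant share was lowest at 2.18%. It was 0.12 in MW21, where that share was 19.2%, but highest in M67 at 0.18, with a share of 8.83%. The lower members went the other way, at 0.24 in MW41 and -0.22 in MW21. Over the 12 face-trained wasps, the median Pearson correlation of a member's log2 CPM with the log2 abundant share was 0.51 in higher members (26 of 32 above 0) and -0.60 in lower members (81 of 88 below 0), beside -0.33 over all 43848 transcripts. Correlations above 0.5 were found in 53.1% of the higher members, against 3.99% of all transcripts, and correlations below -0.5 in 64.8% of the lower members, against 32.2% of all. Taken within the 3 face-trained groups, the medians were 0.51 and -0.61, beside -0.36 over all. With libraries scaled by TMM in place of totals they were 0.70 and -0.22, beside -0.04 over all. These values are a description of libraries that share their totals, and the part of the abundant transcripts in the choice of the members was not tested.

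Wasps of both kinds could be set side by side at like abundant shares. M4, with an abundant share of 8.98%, had a median log2 level of 0.49 in higher and -0.39 in lower members. M67, M91 and MW42, with shares of 8.83%, 9.60% and 9.43%, had 0.18, 0.13 and 0.14 in higher members and -0.17, -0.14 and -0.07 in lower members. MW21, with more of the abundant set than any pattern-trained foundress, had 0.12 and -0.22. The rule fixes on which side each of these wasps lay, M4 and MW21 included, and so bears on the sizes too. The values are given as a description, and nothing is read from the sides or the sizes.

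**Figure D4:**
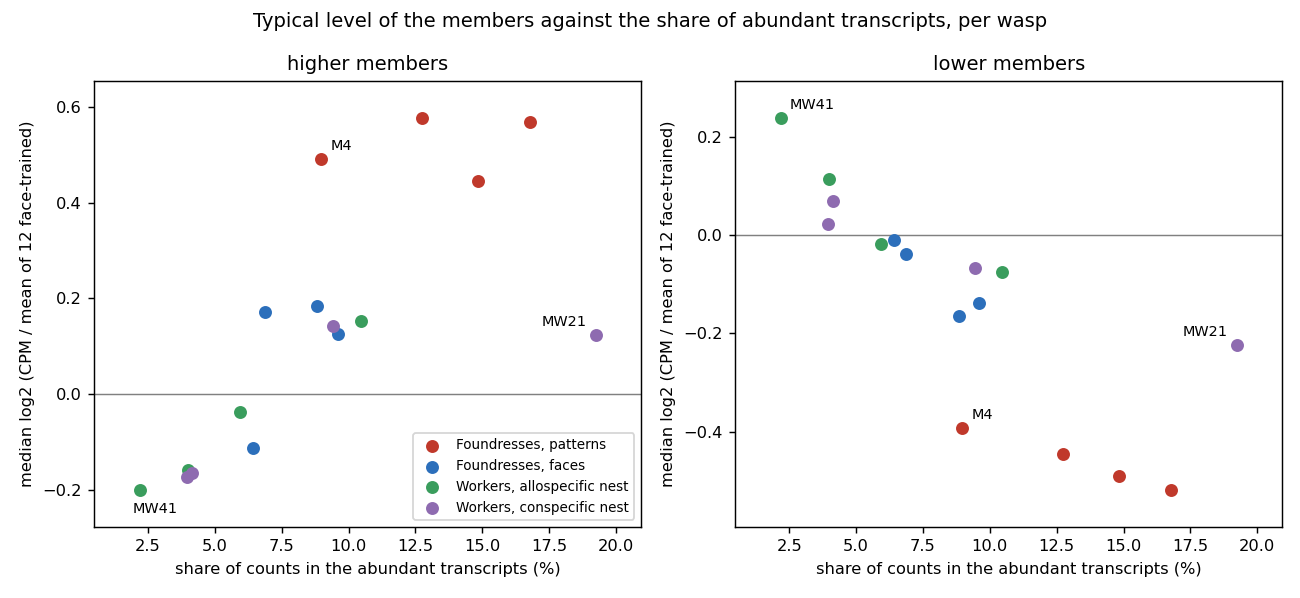
Each point is 1 wasp, with the share of her counts in the abundant transcripts on the horizontal axis (%) and the median log2 level of the higher (left) or lower (right) members relative to the mean of the 12 face-trained wasps on the vertical axis. By abundant share, face-trained wasps run from MW41 (2.18%, -0.20 and 0.24) to MW21 (19.2%, 0.12 and -0.22). Of the 12, M67 (8.83%) is the highest in higher members, at 0.18. The pattern-trained foundresses lie beyond the face-trained wasps at 0.44 to 0.58 and at -0.52 to -0.39.

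Many memberships depended on how the libraries were scaled. With TMM library sizes 142 transcripts met the rule, but only 63 of the 120 members were among them (16 higher and 47 lower). With DESeq2 size factors it was 62 of 136, and with the abundant set left out of the totals 59 of 120, where 62 were higher and 58 lower (51.7% higher, against 26.7% by column totals). The mean of pattern-trained foundresses kept its direction in all 120 members under each of these scalings. That was nearly fixed in advance. The smallest log2 ratio of a member was 0.18 in size, more than these scalings moved the median of all transcripts. Of the 57 members lost under TMM, 28 overlapped in exactly 1 face-trained wasp, most often MW21, in 13 of them. A total of 47 members, 15 higher and 32 lower, met the rule under all 4 scalings, and 45 by column totals alone. The median log2 ratio of all transcripts moved to -0.02 under TMM, -0.01 under DESeq2 and 0.00 without the abundant set. The 47 had median folds of 1.49 where higher and 0.675 where lower. PmetTSAr2.0-072854 and PmetTSAr2.0-078720 were among the 47, and PmetTSAr2.0-084132 and PmetTSAr2.0-021243 met the rule by column totals alone. After the log2 CPM of each transcript was adjusted for the abundant share, with slopes taken within the face-trained groups, 120 transcripts again met the rule, 56 higher and 64 lower (46.7% higher), of which 48 were members. The log2 ratio of PmetTSAr2.0-084132 was then 0.69, against 1.90 before. Since this transcript is in the abundant set, chosen for moving together, a smaller ratio was built in. The log2 ratio of PmetTSAr2.0-072854 was 0.50, against 1.01. That of PmetTSAr2.0-078720 was -0.88, against -1.13, and that of PmetTSAr2.0-021243 lay farther from 0, at -1.53, against -1.13. That adjustment was chosen after the data were seen.

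**Figure D5:**
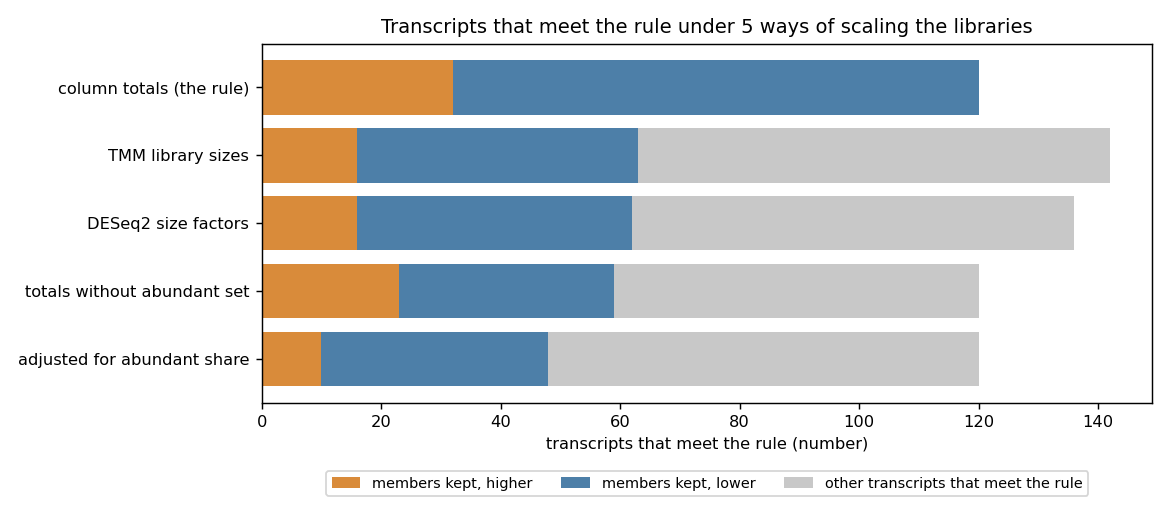
Bars give the number of transcripts that meet the rule under 5 ways of scaling (horizontal axis), with the members kept in orange (higher) and blue (lower) and other transcripts in grey. The rule's own scaling gives 120, and 48 to 63 of these remain under the other 4.

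Counts also moved with single wasps, because the rule asks less when a wasp is missing. It was met by 465 transcripts without M4, 398 without MW21, 322 without M15, 216 without M5 and 213 without M1, and by 123 to 173 without any of the other 11. Without both M4 and MW21, the wasps nearest to the other side, 1338 transcripts met it. Of the 120 members, 114 to 120 still met it in each of the runs with 1 wasp left out. That was largely fixed in advance, because leaving a wasp out cannot undo a separation already met by all wasps. Only the limit between the means of face-trained foundresses and workers could remove a member. The range is therefore no check on the members.

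The same demands placed on the other groups show how often 4 wasps lie beyond the other 12. Pattern-trained foundresses did so in 138 of the 43848 transcripts (0.315%), 39 higher (0.0889%) and 99 lower (0.226%). Face-trained foundresses did so in 283 (0.645%), 146 higher (0.333%) and 137 lower (0.312%). Allospecific-nest workers did so in 27 (0.0616%), 19 higher (0.0433%) and 8 lower (0.0182%). Conspecific-nest workers did so in 69 (0.157%), 51 higher (0.116%) and 18 lower (0.0411%). With the foundress groups exchanged in the whole rule, 241 transcripts met it (0.55%), 123 higher (0.281%) and 118 lower (0.269%), against 120 (0.274%) for pattern-trained foundresses. In the foundress comparison itself, edgeR's quasi-likelihood test with Benjamini-Hochberg adjustment over 55226 transcripts called 0 between pattern-trained and face-trained foundresses (0%; lowest adjusted p 0.200), with 5673 at an unadjusted p under 0.05. Limma-voom called 0 and DESeq2 144, 8 of them members. The rule used this contrast, so nothing is read from these counts for the members.

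Some members lay near each other by identifier. Joined where identifiers lay at most 3 apart, the 120 members fell into 107 runs, of which 11 held 2 or more members, 24 in all. The longest run had 4 lower members with log2 ratios of -0.46 to -0.36, at 17.3 to 27.5 CPM in pattern-trained foundresses, and correlations within groups of 0.60 to 0.86 among them. No run held members of both directions, and how often other transcripts form such runs was not counted. One pair of higher members with adjacent identifiers correlated at 0.94 within groups, with means of 41.6 ± 2.79 and 47.8 ± 3.39 CPM in pattern-trained foundresses and 31.9 ± 5.23 and 35.5 ± 5.44 CPM in face-trained foundresses (SD, n = 4 each). In other runs the correlation was as low as 0.06. Identifiers within 3 of a lower member that were not members themselves had a median log2 ratio of -0.25, with 275 of 320 (85.9%) below 0, against 68.7% of all transcripts. Those next to higher members had a median of 0.06, with 64 of 109 (58.7%) above 0, against 31.3% of all. How many genes the 120 identifiers stand for is not given here.

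Across members the deviations of wasps from their group means were shared only in part. The median correlation of these deviations over the 16 wasps was 0.27 between 2 higher members, 0.30 between 2 lower members and -0.24 between a higher and a lower one. Within the pattern-trained group the coefficient of variation had a median of 9.01% in higher and 7.74% in lower members, against 15.9% over all 43848 transcripts. A narrow spread in these 4 wasps makes it easier to meet the rule. In the 12 face-trained wasps it was 19.2% in higher and 14.2% in lower members, against 19.9% over all.

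Members occurred at every depth. In 4 equal bins of mean CPM, which follows transcript length as well as level, 25, 28, 32 and 35 members were found from the lowest bin to the highest, 0.228%, 0.255%, 0.292% and 0.319% of each. Higher members numbered 10, 12, 7 and 3 in these bins and lower members 15, 16, 25 and 32. The median size of the log2 ratio among members was 0.66 in the lowest bin and 0.40 in the highest, where over all transcripts it was 0.19 and 0.13. The lower member with the most counts, 6545 to 12964 per library, was chosen here after its values were seen. It had 351, 300.3, 443 and 384 CPM in M1, M15, M4 and M5, against 540.4, 458, 478 and 447 CPM in face-trained foundresses. Allospecific-nest workers had 632, 458, 601 and 622 CPM, and conspecific-nest workers 543, 608, 694 and 542 CPM. It met the rule under all 4 scalings, with M4 only 1.01-fold below M91. The higher member with the most counts, 780 to 1474 per library and chosen the same way, averaged 62.7 ± 2.15 CPM in pattern-trained foundresses and 55.4 ± 3.27 CPM in face-trained foundresses (SD, n = 4 each), and met the rule by column totals alone.

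The nest on which workers had lived is the only comparison of the study that the rule did not make, since it did not part the 8 workers by nest. It did use the level of each worker, as each had to lie on the same side of the pattern-trained foundresses. The choice thus bears on the spread among workers, and the nest values of members are not free of it. No member differed between allospecific-nest and conspecific-nest workers by edgeR's quasi-likelihood test, and neither did any of the 55226 transcripts tested (0%; lowest adjusted p 1.00). At an unadjusted p under 0.05 there was 1 of the 120 members, against 1264 of all (2.29%). Limma-voom called 0 transcripts and DESeq2 1, which was no member. The median log2 fold change, allospecific over conspecific, was -0.13 in higher members (8 above 0 and 24 below). It was 0.04 in lower members (59 above 0 and 29 below), beside 0.00 over all tested (27221 above 0 and 28004 below). The median standard error was 0.22 in higher and 0.13 in lower members. By CPM from column totals the median log2 ratio was -0.05 in higher members (12 above 0 and 20 below). It was 0.11 in lower members (77 above 0 and 11 below), beside 0.07 over all 43848 (29045 above 0 and 14803 below). For PmetTSAr2.0-084132 it was -0.64 ± 0.87 (SE) with an edgeR adjusted p of 1.00, with 2.87 ± 2.81 CPM in allospecific-nest and 4.05 ± 3.64 CPM in conspecific-nest workers (SD, n = 4 each). For PmetTSAr2.0-078720 it was 0.09 ± 0.22 (SE) with an edgeR adjusted p of 1.00. The workers from the 2 kinds of nest did not overlap in 4 members (3.33%), against 533 of the 43848 transcripts (1.22%). In 3 lower members all allospecific-nest workers lay above (background 0.773%), and in 1 higher member all lay below (background 0.442%). The abundant share, which moved with the members among face-trained wasps, was 5.64% ± 3.55 in allospecific-nest and 9.19% ± 7.16 in conspecific-nest workers (SD, n = 4 each), and its part in these small differences was not tested.

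Between castes the rule kept members alike within 25%. Within that limit, face-trained foundresses lay above the workers in 23 of the 32 higher members, against 19633 of all 43848 transcripts. They lay below the workers in 69 of the 88 lower members, against 24215 of all. The median log2 ratios were 0.11 and -0.10, beside -0.03 over all transcripts. The means of face-trained foundresses lay mostly on the side of the pattern-trained foundresses. Their medians were much smaller in size than the 0.52 and -0.47 of the difference that chose the members. The rule used this contrast too, so these values are a description with no test.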

How the data were processed

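Brain RNA of 16 wasps was sequenced, 1 library per wasp, from 1 µg of total RNA with an Illumina TruSeq RNA kit, per the labels' protocols. Per the submitters' processing notes the tools were Trimmomatic 0.32, Bowtie2 and eXpress. No option, transcript set, or treatment of strand or shared reads is stated in the labels. Per transcript identifier the authors deposited whole-number counts, without normalization, which may be rounded estimates. All columns were matched to wasps by the number that the column name and label share.

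CPM was computed from the deposited counts and column totals (pandas 2.3.3). The 2 members of largest ratio in each direction are named. The abundant set holds transcripts whose log2 CPM (TMM, prior count of 2) correlated above 0.9 with that of the identifier of most counts over all 16 wasps, and was chosen after the data were seen. Tests used edgeR 4.0.16 (filterByExpr, TMM, robust quasi-likelihood F test, 1 fit of 16 libraries with 4 group means and no covariate, 12 residual degrees of freedom). A transcript is called at an adjusted p under 0.05. Chi-square per degree of freedom ran from 7.14 to 55.2 over pairs of libraries within a group, so each was kept as a sample of its own. Separate wasps are the replicates. The test was tested on simulated data, with the same spread for all transcripts and the same make-up in every library, unlike these data. For the nest comparison it called 2.99% of 67 changes of 1.5-fold, 52.2% of 67 of 2-fold and 93.9% of 66 of 4-fold. These were placed among 54192 transcripts, and the percentages may not hold for the real libraries. Alternatives were DESeq2 1.42.0, limma 3.58.1 voom, other scalings and filters, and each wasp left out in turn. The members, lists and tests were chosen with earlier results of these data known.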

Additional observations from a re-analysis of the deposited data

How the results depend on the processing

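Of the alternatives for the rule, the limit of 1.1-fold between face-trained foundresses and workers left 58 transcripts, by construction all members. Limits of 1.5-fold and minimum counts of 5 or 20 gave 108 to 137. Leaving out 1 wasp at a time, which asks less, gave 123 to 465 transcripts, with 213 without M1, 322 without M15, 465 without M4, 216 without M5 and 398 without MW21, and leaving out M4 and MW21 together, chosen after seeing the data, gave 1338. The 4 named transcripts kept their direction with each wasp left out, which the rule fixes in advance. They also kept it under each scaling, where TMM, DESeq2 and totals without the abundant set moved log2 ratios far less than their size. Neither is therefore a check on them. Their log2 ratios moved by more than the spread of the pattern-trained foundresses only after adjustment for the abundant share. They were then 0.69 for PmetTSAr2.0-084132, itself in the abundant set, 0.50 for PmetTSAr2.0-072854, -0.88 for PmetTSAr2.0-078720 and -1.53 for PmetTSAr2.0-021243. Between nests, edgeR called 0 transcripts under each alternative and without each of the 8 workers, and DESeq2 called 1. The members' median log2 fold change between nests ran from -0.01 to 0.05 with 1 worker left out. Between pattern-trained and face-trained foundresses DESeq2 called 144 of 55226 transcripts (8 of the 120 members). With no low-count filter edgeR called 33 of 126759 (3 of the 120 members). With the filter and 1 foundress left out, edgeR called 0 to 11, with 11 without M79 and 1 without M67, none of them members. The rule used this contrast, so nothing is read from these counts for the members. No paired analysis was possible because the labels give the groups no shared replicate numbers. Of the limits, the lowest count was under 20 in 12 members. The nearest wasps, picked for lying closest, differed beyond counting error in 3 of the 120. TMM factors ran from 0.853 to 1.08, a wider range than the median gap of 1.04-fold.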
